A study of Rattus norvegicus with 90 samples.

Results

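Primary rat hepatocytes exposed for 9 h to the high dose of thioacetamide-S-oxide were compared with hepatocytes exposed for the same time to the low dose. The sample labels placed 10 of the 90 libraries of the study in this comparison, 5 at the high dose of 0.125 mM and 5 at the low dose of 0.025 mM. The study exposed hepatocytes, renal proximal tubular cells and heart muscle cells (cardiomyocytes) to vehicle, a low dose or a high dose for 9 or 24 h, which gave 18 conditions of 5 libraries. The hepatocytes of both groups were cryopreserved cells of Sprague-Dawley rats, thawed, plated on collagen and cultured in maintenance medium before the agent was added to that medium. Vehicle cultures received the medium alone. The sources do not say whether the 5 cultures of a group came from separate animals, so the p-values measure the spread between these cultures, which may be technical. Neither the age nor the genotype of the rats is given in the labels of these libraries.

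Thioacetamide is a classical liver toxicant that has to be oxidized before it injures cells. The first oxidation, by flavin-containing monooxygenases and cytochrome P450 enzymes, yields thioacetamide-S-oxide, and a further oxidation yields a reactive product that binds covalently to proteins and lipids. Hepatocytes carry most of the liver's capacity for both steps, and adding the S-oxide to the medium supplies the intermediate directly. The low and high doses had been chosen in the study to cause mild injury with little loss of viability.

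The deposited tables held estimated counts and TPM (a level scaled to transcript length and to the sum over each library) for 40071 Ensembl transcripts. The reference tables used here do not link Ensembl transcripts to genes, since 0 of their entries held an Ensembl rat identifier. Transcripts were therefore tested one by one, markers of hepatocytes or of other liver cells could not be looked up, and pathways were not scored. The 10 libraries held 25381847 to 35811769 estimated counts each. In place of markers, the libraries were compared with vehicle cultures by the rank correlation of TPM over 20923 transcripts, given as a description. High-dose libraries had a median Spearman correlation of 0.969 with vehicle hepatocytes, 0.711 with vehicle renal cells and 0.666 with vehicle cardiomyocytes. The corresponding medians of the low-dose libraries were 0.979, 0.712 and 0.670. Both groups thus ranked their transcripts far more like hepatocytes than like the other cell types.

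High-dose library MS-105 (numbered as in the labels) stood apart from the rest of its group on the second principal component of the 15 hepatocyte libraries at 9 h. It lay at -26.8 there, against 7.29 to 14.2 for the other high-dose libraries. Low-dose library MS-97, at -20.7, and vehicle library MS-95, at -22.4, lay on the same side. The first component held 36.7% of the variance and separated the doses completely. Vehicle libraries lay between -34.1 and -22.2, low-dose libraries between -8.97 and -2.54 and high-dose libraries between 30.9 and 41.5. On this component library MS-105, at 35.4, was inside the range of its group.

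The separation was also visible in pairs of libraries. Over 16636 transcripts, 2 high-dose libraries differed from each other by a median of 0.240 in mean absolute log2 CPM (counts scaled to library size), with a range over pairs of 0.203 to 0.271. Within the low-dose group the median was 0.212 and the range 0.193 to 0.241. A high-dose library differed from a low-dose library by a median of 0.329, and the smallest of these 25 differences, 0.285, was above the largest difference within either group.

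At 9 h, 1256 of 16636 transcripts (7.55%) were differentially expressed (DE) between high and low dose. Of these, 621 (3.73% of those tested) were higher and 635 (3.82%) were lower at the high dose. A transcript was called DE when edgeR's quasi-likelihood test gave a Benjamini-Hochberg adjusted p of at most 0.05 and the natural-log fold change was at least 0.41 in size, a fold of 1.51. The median log2 fold change over all transcripts tested was -0.01, which the normalization sets near 0. In bulk RNA of this kind, fewer cells and less RNA per cell cannot be told apart.

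Many more transcripts differed by less than that fold. Without the fold threshold, 5694 transcripts (34.2% of those tested) passed the adjusted p, 2784 of them higher and 2910 lower. Groups did not overlap, meaning that every high-dose library was above or below every low-dose library, for 4229 transcripts, 25.4% of those tested. Among the DE transcripts the share was 79.7%, or 1001 of 1256, with 489 of the 621 higher and 512 of the 635 lower transcripts. The test used the same libraries, and these shares therefore describe the DE transcripts and do not add to the evidence for them.

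**Figure D1:**
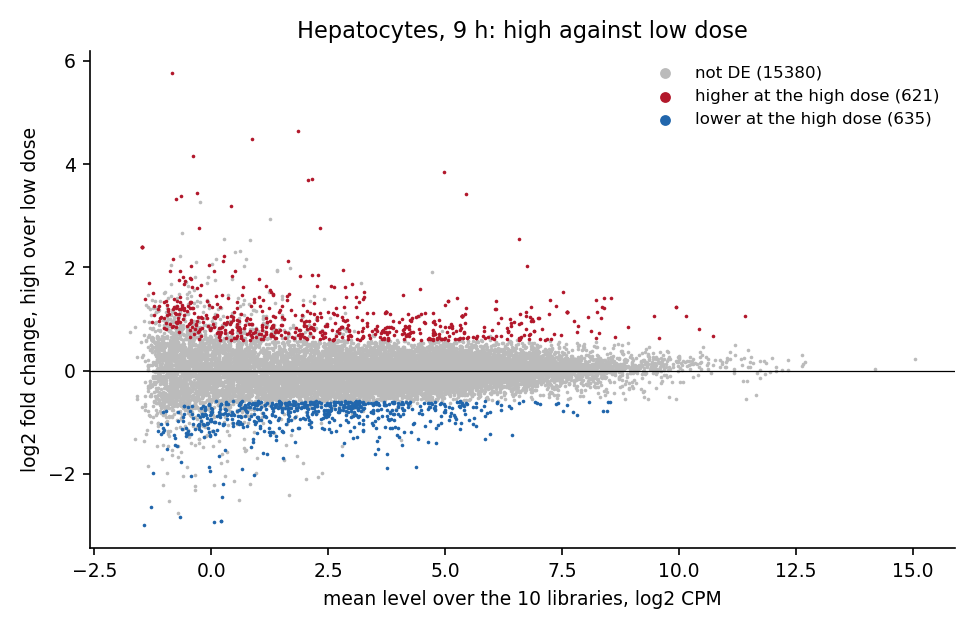
Log2 fold change of each of the 16636 transcripts, high over low dose in hepatocytes at 9 h, against its mean level over the 10 libraries in log2 CPM. The 621 DE transcripts that were higher at the high dose are in red and the 635 that were lower in blue, and the largest increases reach further from 0 than the largest decreases.

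Most changes were moderate in size. The median log2 fold change was 0.89 among the higher transcripts and -0.78 among the lower ones. At a fold of at least 2 there were 395 DE transcripts, of which 244 (61.8%) were higher. At a fold of at least 4, 26 were higher and 10 were lower, and at a fold of at least 8, 12 were higher and 0 were lower. Larger folds therefore held a greater part of higher transcripts than the list as a whole. The lowest fitted log2 fold change was -2.99. The highest, 5.76, belonged to the single transcript that had at most 3 estimated counts in every low-dose library, where a fitted value depends on the prior count, and the next was 4.64.

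The estimated counts of a transcript are whole numbers when none of its reads are shared with another target, which can be a transcript or a genomic interval. This was so, within 0.01 in all 10 libraries, for 6619 of the 16636 transcripts tested, or 39.8%. It was so for 558 of the 1256 DE transcripts, or 44.4%. Among the 36 DE transcripts with a fold of at least 4, the number was 8, or 22.2%. Among the 12 with a fold of at least 8, it was 0, and the groups overlapped in 7 of those 12, leaving 5 without overlap. The largest log2 fold change of a DE transcript with whole counts was 2.54 and the lowest was -2.45. The steepest increases were thus all estimates from reads divided among targets. Which targets shared the reads was not examined, and the part of this division in their folds was not tested.

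The largest single increase by the naming rule was that of ENSRNOT00000025826, a transcript of 2255 bases. The rule took the largest increase among DE transcripts that averaged at least 3 on the log2 CPM scale and did not overlap between the groups. Its level in the high-dose libraries was 39.5, 27.6, 42.1, 30.1 and 22.2 TPM. In the low-dose libraries it was 0.351, 0.394, 3.44, 0.222 and 7.58 TPM. All 5 high-dose libraries were above all 5 low-dose libraries, and 3 of the low-dose libraries were below 1 TPM. Vehicle cultures were spread like the low-dose ones, at 0.224, 7.74, 3.74, 9.85 and 0.612 TPM. The mean level was 59.2 ± 15.6 CPM at the high dose and 4.07 ± 5.45 CPM at the low dose (SD, n = 5 each). The log2 fold change of ENSRNOT00000025826 was 3.84 ± 0.66 (SE), with an adjusted p of 0.000988 in edgeR's quasi-likelihood test. The SD at the low dose was larger than the mean, and the fold has to be read with that spread. Without low-dose library MS-100, the highest of its group, the log2 fold change of ENSRNOT00000025826 was 4.91, and with limma on log2(CPM + 0.5) it was 4.55. The estimated counts behind ENSRNOT00000025826 were uneven at the low dose, at 17.2, 17.2, 186, 9.80 and 366, and in vehicle cultures, at 10.9, 361, 178.4, 542 and 15.1. In the 15 renal libraries at 9 h they lay at 2.73 to 5.98, at 176.06 to 176.95, at 353.2 to 354.4 or at 724.9, with none between. The hepatocyte counts of 178.4 and 186 lay near the renal values of 176.06 to 176.95. Those of 361 and 366 lay near the renal values of 353.2 to 354.4, and 542 lay between renal values. The part of such steps in the fold was not tested.

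The highest level among the transcripts that were higher at the high dose was that of ENSRNOT00000079005, of 798 bases. High-dose libraries held 6698, 6559, 9500, 7460 and 3149 TPM of it. Low-dose libraries held 3182, 2146, 4773, 3575 and 4016 TPM. The groups overlapped because of library MS-105, the last high-dose value, which was below 4 of the low-dose libraries. Vehicle cultures ranged from 2279 to 7218 TPM and spanned most of both dose groups. The log2 fold change of ENSRNOT00000079005 was 1.05 ± 0.27 (SE), with an adjusted p of 0.0111 in edgeR's quasi-likelihood test. With 1 library left out it ranged from 0.89 without high-dose library MS-103 (adjusted p = 0.0282, edgeR) to 1.24 without MS-105 (adjusted p = 0.00108), and the largest adjusted p of these fits was 0.0304, without low-dose library MS-96. With limma on log2(TPM + 1) it was 0.88 (adjusted p = 0.0317).

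The largest decrease by the same rule was that of ENSRNOT00000019921, a transcript of 5487 bases. Its level in the low-dose libraries was 5.58, 5.66, 5.24, 3.88 and 4.11 TPM. In the high-dose libraries it was 1.16, 1.31, 1.30, 0.975 and 1.34 TPM. The lowest low-dose library was thus well above the highest high-dose library. The groups stood in the order of dose, since vehicle cultures held more still, at 6.36 to 8.96 TPM. The log2 fold change of ENSRNOT00000019921 was -1.88 ± 0.12 (SE), with an adjusted p of 1.72e-06 in edgeR's quasi-likelihood test.

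The most abundant transcript that was lower at the high dose was ENSRNOT00000083682, of 1336 bases. Low-dose libraries held 448, 504, 471, 441 and 497 TPM of it, and high-dose libraries 274, 298, 299, 240 and 313 TPM. The groups did not overlap. Vehicle cultures held 603 to 667 TPM, above both doses. The log2 fold change of ENSRNOT00000083682 was -0.60 ± 0.07 (SE), with an adjusted p of 7.73e-05 in edgeR's quasi-likelihood test. This fold lay close to the threshold, and it fell below it, at -0.58, -0.58, -0.58 and -0.55, when low-dose library MS-97 or MS-100 or high-dose library MS-101 or MS-104 was left out. The adjusted p stayed at or below 0.000403 in these fits.

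**Figure D2:**
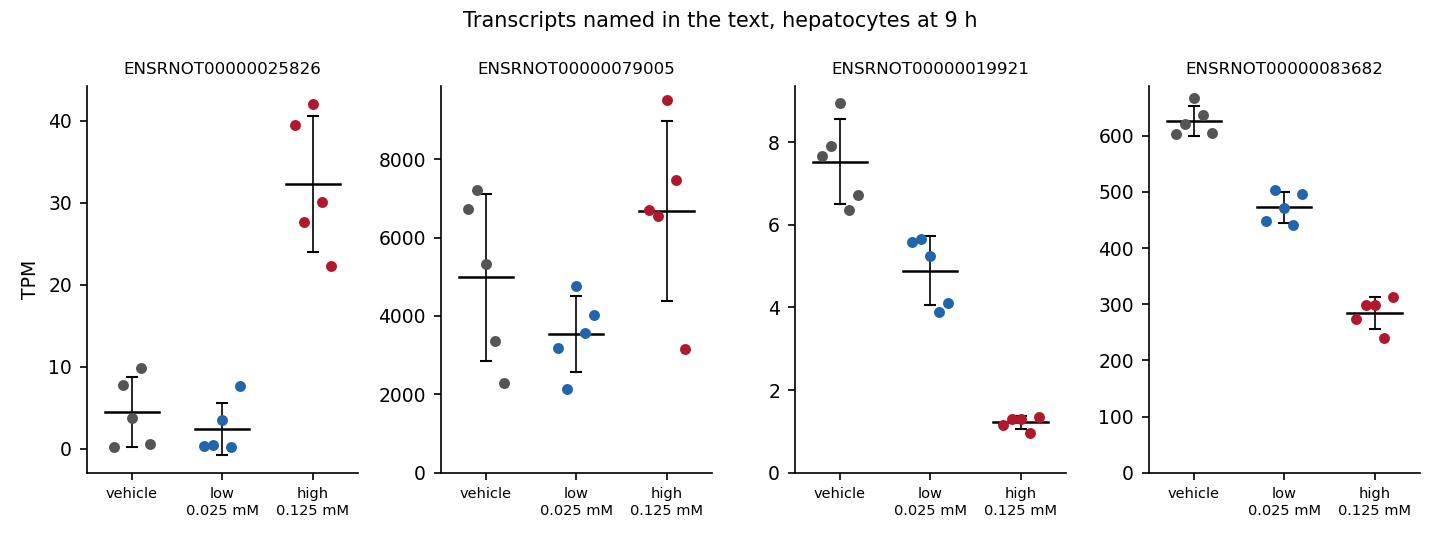
TPM of the 4 named transcripts in each hepatocyte library at 9 h, with vehicle, low dose (0.025 mM) and high dose (0.125 mM) side by side and a separate linear scale for each transcript. Points are libraries, horizontal lines are means and bars are ± SD (n = 5), and only ENSRNOT00000079005 shows an overlap between the low-dose and high-dose libraries. For ENSRNOT00000025826 and ENSRNOT00000019921 the naming rule required that the groups did not overlap.

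Vehicle cultures place the DE transcripts as groups. The 621 higher transcripts had a mean log2 CPM of 3.26 ± 0.08 at the high dose and 2.44 ± 0.05 at the low dose (SD over libraries, n = 5 each). In vehicle cultures, which the selection did not use, the mean was 2.21 ± 0.06. The 635 lower transcripts had a mean log2 CPM of 2.13 ± 0.06 at the high dose, 2.85 ± 0.06 at the low dose and 3.14 ± 0.09 in vehicle cultures. By mean log2 CPM, both groups of transcripts thus stood in the order vehicle, low dose, high dose. By summed TPM, given below, the higher transcripts in vehicle cultures lay on average between the 2 doses. The transcripts that were not DE had means of 3.83, 3.84 and 3.83 in the high-dose, low-dose and vehicle libraries. The low-dose libraries also chose the transcripts, so the step from vehicle to low dose was not tested on these lists.

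Higher and lower transcripts differed in how abundant they were. Of the 2517 transcripts with a mean below 1 TPM, 6.48% were higher and 5.84% lower at the high dose. From 1 to 3 TPM, 4.45% of 2472 were higher and 7.73% lower, and from 3 to 10 TPM, 3.39% of 3840 were higher and 5.0% lower. The balance then turned. From 10 to 30 TPM, 2.72% of 3781 were higher and 1.93% lower. From 30 to 100 TPM, 66 of 2661 were higher and 24 lower. At 100 TPM or more, 49 of 1365 were higher and 8 lower, together 4.18%. The median level was 4.0 TPM among higher and 2.7 TPM among lower transcripts, against 8.66 TPM among all transcripts tested.

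Up to 30 TPM, the shares by level without the fold threshold ran the other way. Below 1 TPM only 14.1% of transcripts passed the adjusted p without a fold threshold, and 12.3% were DE. Between 10 and 30 TPM 43.5% passed, and 4.65% were DE. Above that the shares that passed no longer rose, at 41.7% from 30 to 100 TPM and 39.9% at 100 TPM or more. The DE shares there were 3.38% and 4.18%. Most of the transcripts between 10 and 30 TPM that passed the adjusted p therefore changed by less than the threshold fold.

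Length divided the directions in a similar manner. Among 722 transcripts shorter than 500 bases, 56 were higher and 18 were lower at the high dose. Between 500 and 1000 bases, 56 of 1741 were higher and 40 lower. Between 1000 and 2000 bases 3.22% of 5335 were higher and 3.64% lower, and between 2000 and 4000 bases the numbers were 236 and 237 of 6093. Among 2447 transcripts of 4000 to 8000 bases, 3.68% were higher and 5.44% lower, and from 8000 bases on the numbers were 11 and 13 of 298. Higher transcripts outnumbered lower ones most in the shortest class, and lower transcripts outnumbered higher ones most in the class of 4000 to 8000 bases.

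**Figure D3:**
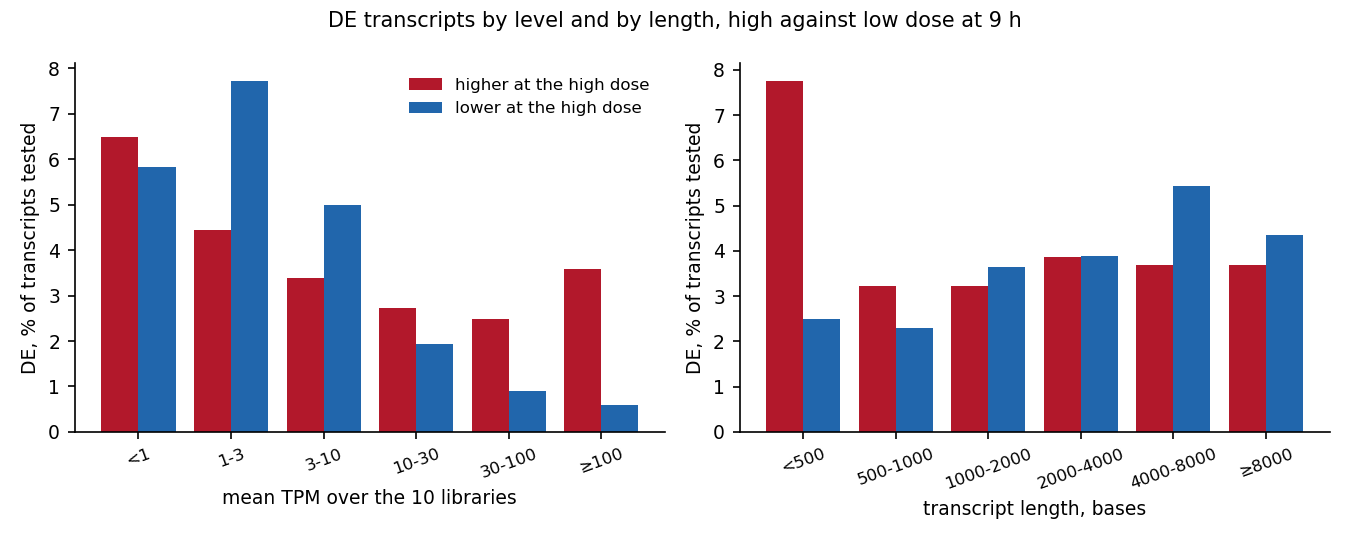
Share of the transcripts tested that were DE, in percent, by mean level over the 10 libraries (left, TPM) and by transcript length (right, bases), with transcripts higher at the high dose in red and lower ones in blue. From 100 TPM on 3.59% were higher and 0.586% lower, and below 500 bases 7.76% were higher and 2.49% lower.

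Part of this tilt came from transcripts that were entered more than once. Of the 16636 transcripts tested, 1.05% had estimated counts identical to those of at least 1 other transcript in all 10 libraries, in 73 sets of up to 8. Such copies cannot be told apart by their reads, and each set carries 1 measurement. Among the 621 higher transcripts 27 were copies, and they formed only 6 sets. Among the 635 lower transcripts 8 were copies, in 4 sets. Of the 56 higher transcripts shorter than 500 bases, 23 were copies, and of the 49 at 100 TPM or more, 21 were copies. No lower transcript of either class was a copy. Transcripts without a copy then numbered 33 higher and 18 lower below 500 bases, and 28 higher and 8 lower at 100 TPM or more, so that the tilt was smaller and kept its direction.

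The largest set had 8 copies of 49 bases, each with a mean of 3048 TPM, and a log2 fold change of 1.06. In the low-dose libraries each copy held 1397, 1942, 1498, 1551 and 3121 TPM. In the high-dose libraries each held 3930, 4409, 6523, 4484 and 1619 TPM. Library MS-105, the last of these, lay within the low-dose range, and the other high-dose libraries lay above it. Vehicle cultures ranged from 1444 to 4676 TPM. TPM divides counts by length and is therefore high for so short a transcript. The 8 copies together held 3.43% ± 1.44 of TPM but 0.043% ± 0.013 of the counts on transcripts at the high dose, and 1.54% ± 0.578 and 0.022% ± 0.005 at the low dose (SD, n = 5 each). The next sets by summed level were 6 copies of 57 bases at 1003 TPM each, 5 copies of 411 bases at 948 TPM each and 2 copies of 666 bases at 2308 TPM each. Their log2 fold changes were 1.13, 1.13 and 1.23, and in all 4 of these sets the 2 dose groups overlapped. Without library MS-105 the log2 fold changes of the 4 sets were 1.22, 1.34, 1.33 and 1.41. Leaving out the library that overlapped fixes that the rest do not, and nothing is read from that. In the other sets of higher copies, 4 copies of 107 bases and 2 copies of 3379 bases, the groups did not overlap. Those were 6 of the 27 higher copies, but each set is 1 measurement. Among the higher transcripts that had no copy, groups did not overlap for 81.3%.

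Summing each set of copies to 1 feature left 16534 features, of which 1238 (7.49%) were DE. Of these, 617 were higher and 621 lower at the high dose, and 1221 were also DE before summing. The total was therefore little affected by the copies. Leaving out library MS-105 as well gave 1255 DE features, 607 higher and 648 lower.

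The copies carried much of the summed TPM of the higher transcripts. All higher transcripts together made up 8.22% ± 2.44 of the TPM of transcripts at the high dose, 4.10% ± 0.803 at the low dose and 5.25% ± 1.84 in vehicle cultures (SD, n = 5 each). Of this, copies held 5.56% ± 2.19 at the high dose and 2.57% ± 0.730 at the low dose. Library MS-105 held 2.20% in copies, inside the low-dose range of 2.04% to 3.85%, and the other high-dose libraries held 5.42% to 8.29%. Without it, all higher transcripts made up 9.15% ± 1.45 at the high dose and copies 6.40% ± 1.30 (SD, n = 4). Vehicle cultures held 3.86% ± 1.68 in the same copies, between the 2 doses. The higher transcripts without a copy held 2.53%, 2.65%, 2.93%, 2.91% and 2.28% in the high-dose libraries. They held 1.48%, 1.31%, 1.64%, 1.58% and 1.64% in the low-dose libraries, so that these shares did not overlap. The vehicle libraries were at 1.24% to 1.61% and overlapped with the low-dose ones. On the scale of counts the copies held less than the transcripts without a copy. Copies held 0.462% ± 0.156 of the counts on transcripts at the high dose and 0.214% ± 0.052 at the low dose, and the higher transcripts without a copy held 3.04% ± 0.242 and 1.69% ± 0.113 (SD, n = 5 each). These shares were summed over transcripts chosen for being higher and are given as levels, with no test.

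**Figure D4:**
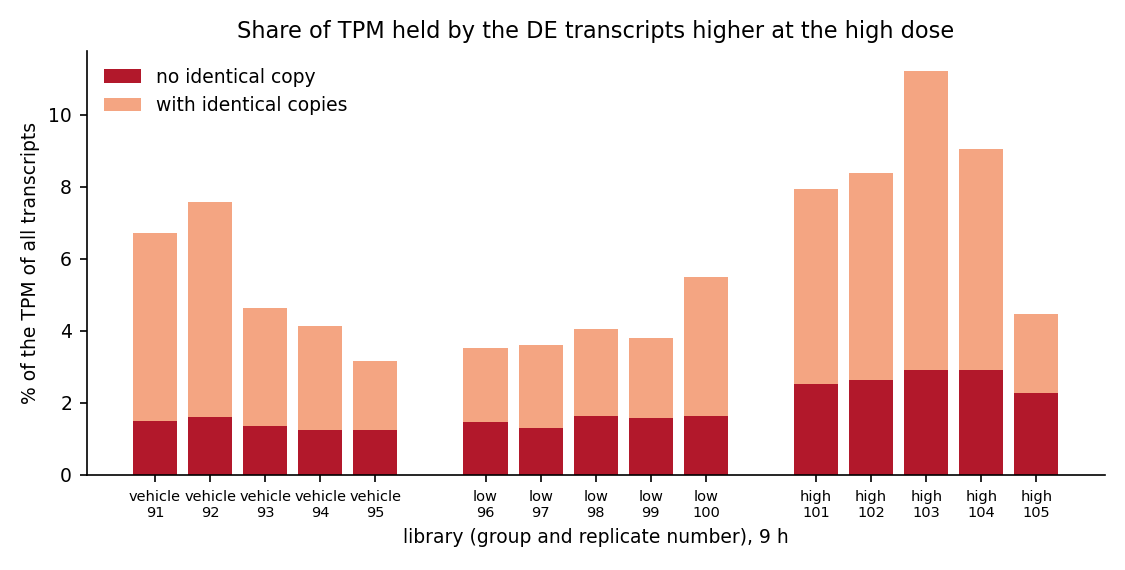
Percent of the TPM of all transcripts held by the 621 transcripts that were higher at the high dose, in each of the 15 hepatocyte libraries at 9 h. Light parts of the bars are transcripts with identical copies, which range from 1.92% to 8.29% and vary within every group, and dark parts are transcripts without a copy, which range from 2.28% to 2.93% at the high dose and from 1.24% to 1.64% in the other libraries.

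The lower transcripts held little of the summed TPM and varied little between the libraries of a group. They made up 0.366% ± 0.023 of TPM at the high dose, 0.688% ± 0.038 at the low dose and 0.910% ± 0.054 in vehicle cultures (SD, n = 5 each). The 5 high-dose libraries were between 0.326% and 0.382%. The low-dose libraries were between 0.649% and 0.736%, and vehicle cultures were between 0.834% and 0.970%. Library MS-105 was inside the high-dose range here, at 0.376%. These transcripts were chosen for being lower in the same libraries, so the gap between the doses describes the list and is no test. A rise of the copies, which stay in the total of TPM, also lowers these shares by construction.

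All transcripts shorter than 500 bases, whether DE or not, made up 19.4%, 20.1%, 20.7% and 20.2% of TPM in 4 high-dose libraries and 17.5% in library MS-105. Low-dose libraries were between 16.8% and 18.5%, and vehicle cultures were between 17.5% and 19.5%. These shares include the short copies. With the higher copies left out, the remaining short transcripts made up 13.3% to 15.6% of TPM at the high dose and 15.04% to 15.9% at the low dose, and library MS-105 was the highest of its group. Vehicle cultures were between 14.2% and 16.0% and spanned most of both dose groups. The copies stay in the total of TPM, so a rise of the copies lowers these remaining shares by construction, and no difference between the doses is read from them.

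The make-up of the libraries differed a little between the doses. On average, transcripts received 91.7% ± 1.19 of the estimated counts at the high dose and 93.5% ± 0.504 at the low dose, and the rest fell on genomic intervals. The difference was -1.78 percentage points (exact two-sided permutation test, p = 0.0238, adjusted p = 0.0476 over 3 measures). The 100 most abundant transcripts held 36.8% ± 0.699 of TPM at the high dose and 35.01% ± 1.10 at the low dose. Here the difference was 1.75 percentage points (exact two-sided permutation test, p = 0.0317, adjusted p = 0.0476). Identical copies were counted separately in these shares, and their part in the difference was not tested. For the 20 most abundant transcripts the difference was 0.018 percentage points (exact two-sided permutation test, adjusted p = 0.976). The number of transcripts with at least 1 count was 22322 at the high dose and 22398 at the low dose on average, and the difference of -76 was within the spread between libraries (exact two-sided permutation test, p = 0.754). The smallest p this design allows is 0.00794, and with 4 libraries against 5 it is 0.0159. With each library left out in turn, the differences ranged from -2.22 to -1.42 and from 1.38 to 2.15 percentage points. At that smaller size the first adjusted p stayed below 0.05 only without high-dose library MS-105, and the second only without low-dose library MS-97, while in the other 9 fits of each the adjusted p was 0.0714 or 0.0952.

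Genomic intervals, which the deposited tables list beside the transcripts, gave a further view of the same libraries. Fitted together with the transcripts, 1151 of 9437 intervals (12.2%) passed the same thresholds, 595 of them higher and 556 lower at the high dose. Their median log2 fold change was -0.01.

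Hepatocytes exposed for 24 h to the same doses were sequenced in separate libraries and can be set beside the 9 h result. At 24 h, 2520 of 16891 transcripts (14.9%) were DE between high and low dose, 1111 higher (6.58%) and 1409 lower (8.34%). Of the 621 transcripts that were higher at 9 h, 583 were tested at 24 h and 337 were higher there, which is 54.3% of the 9 h list and 30.3% of the 24 h list. A further 2 were lower. Of the 635 transcripts that were lower at 9 h, 632 were tested and 333 were lower again, 52.4% of the 9 h list and 23.6% of the 24 h list, and 0 were higher. These shares stand against 6.58% and 8.34% of all transcripts tested at 24 h. The median log2 fold change at 24 h was 0.79 for the transcripts higher at 9 h and -0.66 for those lower at 9 h. Over the 16228 transcripts tested at both times, Pearson's r of the log2 fold changes was 0.577, and over the 1215 of them that were DE at 9 h it was 0.799. These correlations are across transcripts, which are not independent replicates. The DE transcripts lack small folds at 9 h, which by itself can raise r, and 0.799 is not read as closer agreement.

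At 24 h ENSRNOT00000019921 was again lower, with a log2 fold change of -1.81 and an adjusted p of 3.75e-06 in edgeR's quasi-likelihood test, and its levels were 1.22 ± 0.257 TPM at the high dose and 4.39 ± 0.498 TPM at the low dose. ENSRNOT00000083682 was also lower again, at -0.85 (adjusted p = 0.000179, edgeR), although its levels at 24 h, of 656 ± 89.6 and 1219 ± 208 TPM, were both above those at 9 h. ENSRNOT00000025826 had a log2 fold change of 1.82 with an adjusted p of 0.157 by edgeR, and its high-dose libraries were spread from 0.737 to 49.2 TPM. ENSRNOT00000079005 had a log2 fold change of -0.37 with an adjusted p of 0.464 by edgeR, and was at 3917 ± 1857 TPM at the high dose and 5164 ± 2233 TPM at the low dose. In none of the 4 did the difference between the doses change from 9 to 24 h past the threshold, with adjusted p-values from edgeR's interaction contrast of 0.858, 0.323, 0.350 and 0.0709 in the order given.

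**Figure D5:**
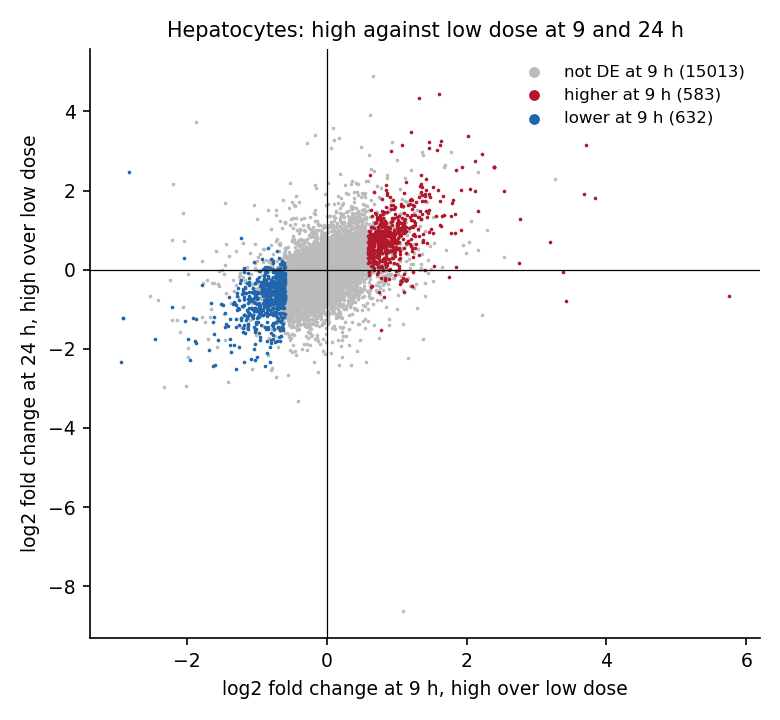
Log2 fold change of high over low dose in hepatocytes at 24 h against that at 9 h, for the 16228 transcripts tested at both times. Red points are the 583 transcripts that were higher and blue points the 632 that were lower at 9 h, and most of each group lies on the same side of 0 at 24 h, with medians of 0.79 and -0.66.

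The difference between the doses was itself tested between the times in 1 fit over the 20 libraries. It changed from 9 to 24 h in 712 of 17710 transcripts (4.02%), becoming more positive in 289 and more negative in 423. The larger direction turned with the setting. Without the fold threshold it became more positive in 1191 and more negative in 1071, and with limma on log2(TPM + 1) in 273 and 233. The 9 h libraries entered both this contrast and the 9 h lists, and no overlap between them is given for that reason. A transcript that was DE at only 1 of the times is therefore not shown to respond differently at the other unless it is among the 712.

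Renal proximal tubular epithelial cells were exposed for 9 h to other doses, 0.125 and 0.5 mM, and are given beside the hepatocytes without a comparison of the doses. Between their high and low dose, 2249 of 17641 transcripts (12.7%) were DE, 1099 higher (6.23%) and 1150 lower (6.52%). Of the 621 transcripts higher in hepatocytes, 526 were tested in renal cells, where 120 were higher and 32 lower. The 120 were 19.3% of the hepatocyte list and 10.9% of the renal list. Of the 635 lower transcripts, 544 were tested in renal cells, where 83 were lower and 33 higher. The 83 were 13.1% of the hepatocyte list and 7.22% of the renal list. The median log2 fold change in renal cells was 0.16 for the transcripts higher in hepatocytes and -0.14 for those lower in hepatocytes. Pearson's r over 15010 transcripts was 0.142, and over the 1070 that were DE in hepatocytes it was 0.256. The choice of DE transcripts can again raise r by itself.

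Both of the named transcripts that were lower in hepatocytes were at far lower levels in renal cells. ENSRNOT00000019921 was at 0.128 ± 0.030 TPM in high-dose and 0.090 ± 0.068 TPM in low-dose renal cells, and at 0.228 ± 0.069 TPM in renal vehicle cultures. ENSRNOT00000083682 was at 0.056 ± 0.078 and 0.017 ± 0.024 TPM at the high and low dose and was not tested there, and renal vehicle cultures held 1.50 ± 1.47 TPM of it, up to 4.08 TPM. ENSRNOT00000079005 was abundant in renal cells as well, at 3731 ± 1161 TPM at the high dose and 3727 ± 1462 TPM at the low dose, and was not DE there (log2 fold change -0.03, adjusted p = 0.957, edgeR). ENSRNOT00000025826 was at 7.90 ± 6.53 TPM in high-dose and 1.03 ± 2.05 TPM in low-dose renal cells, with a log2 fold change of 2.91 and an adjusted p of 0.0690 by edgeR.

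The balance of the directions depended on the scale. With limma on log2(TPM + 1), a scale that compresses the folds of rare transcripts, 773 transcripts were DE, 242 higher and 531 lower, so that 31.3% were higher against 49.4% in the count-based test. On that scale the median of all transcripts was shifted to -0.10, and 602 of the 773 were also DE in the count-based test. On counts, 5 other normalizations, filters and models gave 1032 to 1360 DE transcripts, of which 47.2% to 51.9% were higher.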

How the data were processed

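RNA of the cultures was poly-A enriched, made into stranded libraries and sequenced as paired reads. The authors pseudo-aligned the reads to the rat Rnor_6.0 transcriptome with Kallisto (version 0.42.4 in the submitters' processing notes) and deposited, for each library, estimated counts and TPM per target. Reads shared by similar transcripts are split between them, so estimated counts need not be whole. The study's own Sleuth fits were left aside. The tables held 65166 targets, 40071 transcripts and 25095 genomic intervals, and the tests cover transcripts unless intervals are named.

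After rounding to whole numbers, estimated counts were tested by edgeR 4.0.16 under R 4.3.3 (filterByExpr, TMM factors, glmQLFit, glmQLFTest), with Benjamini-Hochberg adjustment over all transcripts tested. The high-dose and low-dose libraries alone entered each fit, and the change between the times used 1 fit of 4 groups. Adjusted p-values of transcripts come from edgeR. Levels were taken from the deposited TPM, or from CPM with TMM factors. The library measures were compared by exact permutation tests in scipy 1.17.1, adjusted over the 3 measures.

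Alternatives were DESeq2 1.42.0, upper-quartile factors, 2 other filters, limma 3.58.1 on log2(CPM + 0.5) and log2(TPM + 1), other fold thresholds, transcripts with whole-number counts, intervals in the fit, vehicle in the fit, and each library left out in turn. Summing identical copies, with and without library MS-105, was chosen after seeing the data. In simulated counts for the 9 h design over 16291 transcripts, edgeR called 18 of 65 transcripts changed 1.5-fold, 53 of 65 changed 2-fold and 65 of 66 changed 4-fold, with 3 false calls, the first of these folds being just under the threshold of 1.51. For the change between the times, over 17349 simulated transcripts, it called 23, 44 and 52 of 66 at these folds, with 7 false calls. Simulated counts were drawn independently, without shared reads, so the numbers of false calls need not carry over to the data.

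The comparison, its settings and the rule for named transcripts were chosen with earlier results of these data known. Of each direction, the rule named the largest fold among DE transcripts that averaged at least 3 on the log2 CPM scale without overlap between the groups, and the DE transcript with the highest mean TPM. Gene lists and marker lists had been planned but could not be used without a table of names. Errors are SDs over cultures or SEs of the fit.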

Additional observations from a re-analysis of the deposited data

Results flagged for a closer look

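The difference between high and low dose changed from 9 to 24 h in 712 of 17710 transcripts, which differed between the times by the interaction contrast of edgeR's quasi-likelihood test at an adjusted p of at most 0.05 and a natural-log change of at least 0.41 in size. Signal was also present outside the transcripts, since 1151 of the 9437 genomic intervals differed between the doses at 9 h. High-dose library MS-105 lay far from the other 4 of its group on the second principal component, at -26.8, with a gap of 0.831 of the group's range. Dixon's criterion was applied to 10 measures in each of the 2 dose groups at 9 h, and this was the 1 of 20 values past it. If the 20 values were independent, 1 would be expected past it by chance. They come from the same libraries and are not independent, and whether this value arose by chance was not tested. The principal components were added to the measures after seeing the data.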

How the results depend on the processing

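The count of DE transcripts at 9 h (1256) stayed within 1.5 times of itself under DESeq2, upper-quartile factors, both filters, limma on log2(CPM + 0.5), intervals or vehicle in the fit and summed copies. It moved to 773 with limma on log2(TPM + 1), 5694 without a fold threshold, 395 at a fold of at least 2 and 613 of 6616 with whole-number counts, where the last 3 test fewer transcripts or other thresholds by construction. Under the same 4 settings the count at 24 h (2520) was 1588, 6849, 865 and 1120, and that in renal cells (2249) was 1369, 8011, 809 and 1094. The change between the times (712) was 2262 without a fold threshold, 260 at a fold of at least 2 and 396 with whole-number counts. With limma on log2(TPM + 1) it was 506, of which 54% became more positive, against 40.6%. The cause of the shifts under log2(TPM + 1) was not tested.

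With 1 library left out, the counts ranged from 1097 to 1279 at 9 h, from 2302 to 2643 at 24 h, from 2108 to 2371 in renal cells and from 627 to 843 for the change between the times. The difference in the share of counts on transcripts ranged from -2.22 to -1.42 percentage points, that in the 100 most abundant transcripts from 1.38 to 2.15, and that in transcripts detected from -221 to -8.80. For the 20 most abundant transcripts it was 0.018 percentage points (adjusted p = 0.976, exact permutation test). The log2 fold changes of the named transcripts kept their sign in all 20 alternatives, at 3.55 to 4.91 for ENSRNOT00000025826, 0.88 to 1.24 for ENSRNOT00000079005, -1.95 to -1.40 for ENSRNOT00000019921 and -0.73 to -0.55 for ENSRNOT00000083682. No paired analysis was possible because the groups share no replicate numbers. How the calls depend on depth was not tested.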

Other observations

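The estimated counts of ENSRNOT00000025826, the largest increase, fell into steps in renal cells at 9 h. Of the 15 renal libraries, 7 held 2.73 to 5.98 estimated counts, 4 held 176.06 to 176.95, 3 held 353.2 to 354.4 and 1 held 724.9, with 0 libraries between these ranges. In low-dose hepatocytes at 9 h the estimated counts of ENSRNOT00000025826 were 17.2, 17.2, 186, 9.80 and 366, and in vehicle hepatocytes they were 10.9, 361, 178.4, 542 and 15.1. In the high-dose hepatocytes they were 1825, 1629, 2104, 1309 and 918. The low-dose and vehicle counts of 186 and 178.4 lay near the renal values of 176.06 to 176.95. Those of 366 and 361 lay near the renal values of 353.2 to 354.4, and 542 lay between renal values.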
